A study of Mus musculus with 3 samples.

Results

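The genes described here are the cyclins, the cyclin-dependent kinases (CDKs), their inhibitors and activators, the retinoblastoma proteins and the E2F transcription factors. They were taken by name from a list of 50 symbols, through every probe set whose platform annotation gives 1 of these symbols and no other, and probe sets of 1 gene were averaged. Of the 50 genes, 49 were measured, among 19938 genes in all, and Ccnb1 is not analysed here. The data are Affymetrix array signals from 3 samples of 1 group, sorted ureteric tip cells of CD-1 mouse embryos at 10.5 dpc (days post coitum, Theiler stage 18), with sex unknown. All carry the transgene Tg(Hoxb7-EGFP)33Cos, whose fluorescent protein is under Hoxb7 control and labels the nephric duct and the ureteric bud, the outgrowth that branches into the collecting system. Each sample was 1 bud and no pool, freed with trypsin and sorted by fluorescence, so the reporter marks the duct and bud epithelium and not the tip alone. No second group was measured, and the questions open to the data are which paralogues of each family gave signal in the bud and how the buds differed.

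Cell division is driven by CDKs, kinases that act only when bound to a cyclin and that are held back by inhibitor proteins. D-type cyclins with CDK4 or CDK6 open the cycle by phosphorylating the retinoblastoma proteins, which frees E2F factors to switch on the genes of DNA replication. Cyclins E and A with CDK2 then carry S phase, and cyclins A and B with CDK1 carry mitosis. In the ureteric bud, dividing cells are concentrated at the tips, where RET signalling drives branching.

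Values are signals on a log2 scale, 1 array per bud. A gene was called above background when its mean exceeded the array's background level at an adjusted p under 0.05 (limma, one-sided, Benjamini-Hochberg over all genes). That level was the 95th percentile of 1035 olfactory receptor probe sets and lay at 5.40, 5.45 and 5.41 log2 on buds 1, 2 and 3. Signals of different probe sets depend on the probes as well as on the RNA, so the height over background is given for each gene and is no measure of which paralogue had more RNA. Of the 49 genes, 13 (26.5%) held 1 identical value on all 3 arrays, against 51.7% of all genes and 42.1% of all genes above background. Such a value carries no measured spread. In 23 others of the 49, the values of 2 arrays were identical, so their SD rests on 1 array.

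Together, 44 of 49 genes (89.8%) were above background, against 53% of all 19938 genes. Their median height over background was 1.62 log2, against 0.22 log2 over all genes. Heights of more than 3 log2 were reached by 10 of the 49 genes (20.4%), namely Ccna2, Ccnb2, Ccnd1, Ccnd2, Ccnk, Cdk1, Cdk4, Cdk8, Wee1 and Tfdp1, against 9.04% of all genes. The genes not above background were Ccna1, Ccnb3, Cdkn2b, Cdkn2c and E2f1. The calls depend on the level chosen: 37 of 49 were above the 99th percentile of olfactory receptors, where 35.3% of all genes were called. With the 95th percentile of 84 probe sets of Krtap genes (keratin-associated proteins) and Defb genes (beta-defensins) in place of olfactory receptors, 23 of 49 were called, against 21.1% of all genes. These 23 were also called in every other setting that was tried. Those were the 90th percentile (46 of 49, against 63.7% of all genes), a single probe set per gene (44, against 53.4%), quantile normalization (43, against 52.8%), an SD floor for identical values (43, against 51.1%) and a fit to the brighter 14937 genes (44 of 46, against 71%). The fits without bud 1, bud 2 or bud 3 called 43, 45 and 43 of 49, against 48.5%, 52.8% and 48.8% of all genes. These fits do not share 1 error model. The prior spread used by limma was 0.18 log2 with infinite degrees of freedom without bud 1 or without bud 3. Without bud 2 it was 0.014 log2 with 0.91 degrees of freedom.

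**Figure D1:**
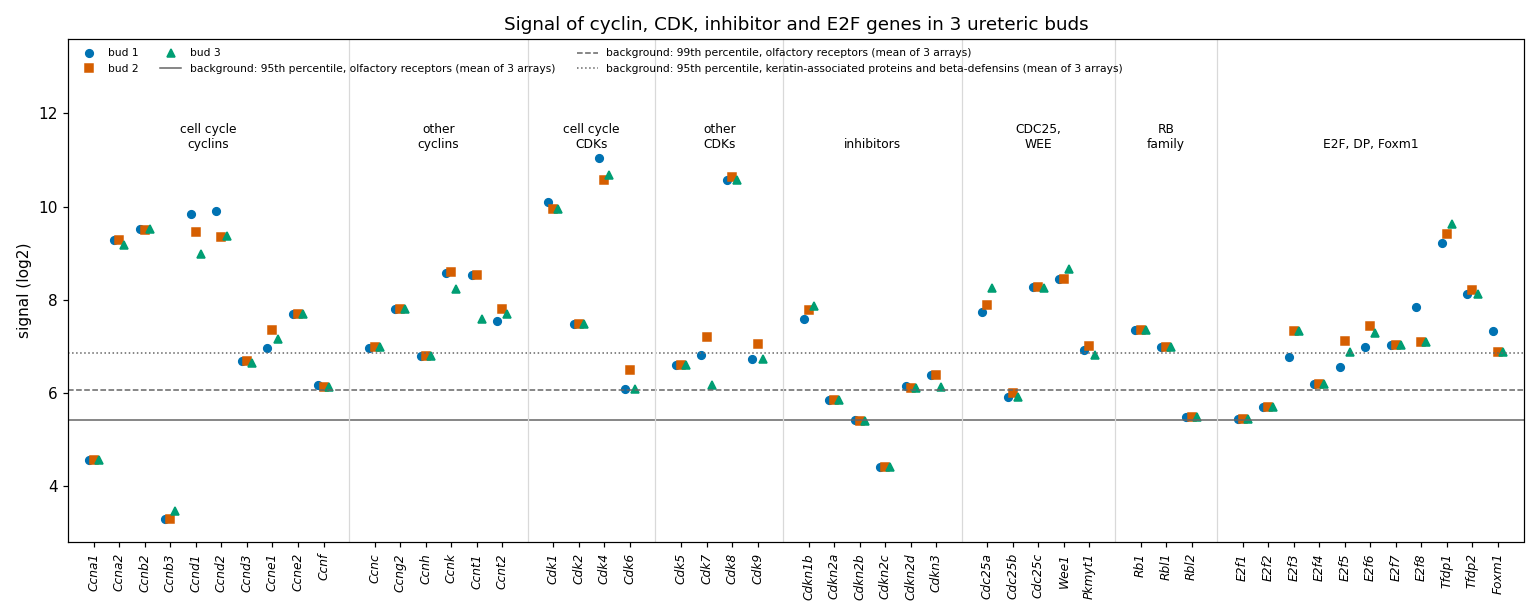
Signal (log2, vertical axis) of the 49 genes in bud 1 (circles), bud 2 (squares) and bud 3 (triangles), grouped by family, with 1 point per array and horizontal lines for 3 background levels averaged over the arrays. Ccna1, Ccnb3 and Cdkn2c lie below the lowest line in every bud, while Ccnd1, Ccnd2, Cdk1, Cdk4, Cdk8 and Tfdp1 lie above the highest line in every bud.

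Upstream sequences of 5 genes are shown because they hold letters known from cell cycle promoters, and because 2 of these genes were not above background. They are the 250 bases before the RefSeq gene start (build GRCm38.p6), written 5′ to 3′ on the strand of the gene. Capitals mark the E2F core (spelled TTCCCGC, alternatively TTCGCGC, alternatively TTGCCGC, alternatively TTGGCGC), the cell cycle homology region or CHR (spelled TTTGAA, alternatively TTCGAA) and the CCAAT box (CCAAT), each searched on both strands, so that reverse complements are in capitals too. Cdk1 (chr10:69352913-69353162, minus strand) and Ccnb2 (chr9:70421555-70421804, minus strand) are the mitotic kinase and a cyclin partner. E2f7 (chr10:110745189-110745438, plus strand) encodes an E2F repressor. Ccnb3 (chrX:7041620-7041869, minus strand) and Cdkn2c (chr4:109666757-109667006, minus strand, the first of 2 starts) were not above background.
Cdk1: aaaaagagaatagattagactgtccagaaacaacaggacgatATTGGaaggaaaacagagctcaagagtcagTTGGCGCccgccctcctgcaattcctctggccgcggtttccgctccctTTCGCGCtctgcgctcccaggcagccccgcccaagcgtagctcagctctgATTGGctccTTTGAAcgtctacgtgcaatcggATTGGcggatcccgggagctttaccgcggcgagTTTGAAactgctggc
Ccnb2: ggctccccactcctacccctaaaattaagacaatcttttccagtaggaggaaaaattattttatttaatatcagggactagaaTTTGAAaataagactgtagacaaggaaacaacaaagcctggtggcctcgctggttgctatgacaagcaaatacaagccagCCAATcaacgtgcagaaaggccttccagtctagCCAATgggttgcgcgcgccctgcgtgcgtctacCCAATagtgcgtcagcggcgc
E2f7: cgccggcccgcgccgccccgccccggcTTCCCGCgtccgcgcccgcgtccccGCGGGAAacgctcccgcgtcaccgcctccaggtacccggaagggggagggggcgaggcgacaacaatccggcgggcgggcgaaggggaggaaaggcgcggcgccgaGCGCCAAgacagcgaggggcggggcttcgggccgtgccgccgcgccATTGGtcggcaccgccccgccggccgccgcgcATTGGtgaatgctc
Ccnb3: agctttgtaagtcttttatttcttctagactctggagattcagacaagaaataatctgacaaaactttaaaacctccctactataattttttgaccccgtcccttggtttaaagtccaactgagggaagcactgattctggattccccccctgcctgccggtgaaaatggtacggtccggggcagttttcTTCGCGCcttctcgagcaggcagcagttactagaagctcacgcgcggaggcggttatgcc
Cdkn2c: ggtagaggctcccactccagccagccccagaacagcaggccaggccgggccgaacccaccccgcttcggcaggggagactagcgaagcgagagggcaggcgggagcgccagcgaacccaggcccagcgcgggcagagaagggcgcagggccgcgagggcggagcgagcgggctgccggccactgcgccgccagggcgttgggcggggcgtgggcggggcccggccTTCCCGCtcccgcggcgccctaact

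The Cdk1 stretch held 2 E2F cores, which begin 178 and 130 bases before the start, 2 CHR matches at 71 and 15 bases and 3 CCAAT boxes in reverse at 208, 80 and 48 bases. Ccnb2 held 3 CCAAT boxes at 87, 54 and 21 bases before the start and 1 CHR match at 167 bases, while a second CHR match lay just after the start, outside the printed stretch. E2f7 held 3 E2F cores, at 223, 198 and 92 bases, those at 198 and 92 in reverse. It also held 2 CCAAT boxes in reverse, at 46 and 14 bases. Ccnb3 and Cdkn2c each held 1 E2F core, at 60 and 25 bases, and neither gene gave signal above background. Promoter windows of 300 bases, 250 before and 50 after the start, were at hand for 37 of the 50 genes. An E2F core stood in 14 of these 37 (37.8%), against 10.9% of all 27025 genes with a window. A CCAAT box stood in 22 of 37 (59.5%) against 41.1%, and a CHR match in 10 of 37 (27.03%) against 21.7%. E2F cores stood in 11 of the 31 genes above background that had a window and in 2 of the 5 that were not above background. A gene with several windows counted when any of them held a match, and an E2F core on either strand can share bases with a CCAAT box. These are matches of letters, given as a description and not as sites of binding.

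Among the cyclins that turn the cell cycle, 8 of 10 measured genes were above background, against 53% of all genes. The D-type cyclins, which receive growth factor signals in early G1, were all above it. Ccnd1 had a signal of 9.84, 9.46 and 8.99 log2 in buds 1, 2 and 3 (mean 9.43 ± 0.43, SD, n = 3), which is 4.01 log2 over background (limma, adjusted p = 7.34e-05). Ccnd2 had 9.90, 9.36 and 9.37 log2, a mean of 9.54 ± 0.31, which is 4.12 log2 over background (adjusted p = 3.00e-05). For both genes bud 1 was the highest, and for Ccnd1 bud 3 was the lowest. Ccnd3 had 6.70, 6.70 and 6.65 log2, or 1.26 log2 over background (adjusted p = 5.43e-06), and its call was lost against the Krtap and Defb level. Both E-type cyclins, the partners of CDK2 at the start of S phase, were above background. Ccne1 had 6.97, 7.35 and 7.17 log2 (adjusted p = 5.49e-05) and Ccne2 had 7.69 log2, identical on all 3 arrays (adjusted p = 1.38e-06).

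Of the A-type and B-type cyclins, Ccna2 and Ccnb2 were above background, and Ccna1 and Ccnb3 were not. Ccna2, the A-type cyclin of dividing somatic cells, had 9.28, 9.28 and 9.18 log2, which is 3.83 log2 over background (limma, adjusted p = 8.81e-07). Ccna1, known from the male germ line, had 4.57 log2 in every bud, a mean difference of -0.85 log2 from background. Ccnb2, a mitotic cyclin, had 9.52, 9.50 and 9.52 log2, or 4.09 log2 over background (adjusted p = 7.37e-07), and its buds lay within 0.017 log2 of each other. Ccnb3, a cyclin of meiosis, had 3.29, 3.29 and 3.47 log2, a mean difference of -2.07 log2 from background. Neither Ccna1 nor Ccnb3 was called in any setting that tested it. Ccnf, whose product is the substrate-binding part of a ubiquitin ligase and pairs with no CDK, had 6.18, 6.13 and 6.13 log2 (0.73 log2 over background, adjusted p = 5.08e-05) and lost its call at the 99th percentile.

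The 6 listed cyclins outside the core cycle, Ccnc, Ccng2, Ccnh, Ccnk, Ccnt1 and Ccnt2, were all above background, against 53% of all genes. Against the Krtap and Defb level, where 21.1% of all genes were called, 4 of the 6 were called and Ccnc and Ccnh were not. Ccnt1 and Ccnt2 encode the cyclins of CDK9, the kinase that releases paused RNA polymerase II. Ccnt1 had 8.54, 8.54 and 7.59 log2 in buds 1, 2 and 3, so that bud 3 lay 0.95 log2 below the others, while Ccnt2 had 7.55, 7.80 and 7.69 log2. Ccnk, the partner of CDK12 and CDK13, had 8.58, 8.59 and 8.23 log2, again with bud 3 the lowest. Ccng2, a cyclin linked to cell cycle arrest, had 7.80, 7.80 and 7.81 log2. Ccnc, the partner of CDK8 in the Mediator complex, had 6.97, 6.98 and 6.98 log2, and Ccnh, the partner of CDK7, had 6.79 log2 in every bud. The adjusted p of these 6 genes ran from 1.38e-06 to 0.000473 (limma).

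The CDKs were above background in 8 of 8 measured genes, against 53% of all genes. Cdk1, the kinase of mitosis, had 10.10, 9.96 and 9.96 log2, which is 4.59 log2 over background (limma, adjusted p = 1.46e-06). Cdk4, a kinase of the D-type cyclins, had 11.05, 10.58 and 10.68 log2, or 5.35 log2 over background (adjusted p = 8.69e-06). Its paralogue Cdk6 had 6.10, 6.51 and 6.10 log2, or 0.81 log2 over background (adjusted p = 0.00129). Cdk4 was called in every setting, while Cdk6 lost its call at the 99th percentile and against the Krtap and Defb level. Bud 1 was the highest for Cdk4 and bud 2 for Cdk6. Cdk2, the partner of cyclins E and A, had 7.49 log2, identical on all 3 arrays (adjusted p = 1.65e-06).

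Cdk7, the CDK-activating kinase, had 6.82, 7.20 and 6.17 log2 (limma, adjusted p = 0.00466), the widest range of all 49 genes. That range came from 1 of its 2 probe sets, which gave 6.17, 6.69 and 4.81 log2, while the other gave 7.47, 7.72 and 7.53 log2. With that brighter probe set alone, the range of Cdk7 was 0.25 log2 in place of 1.03. Cdk9 had 6.74, 7.05 and 6.74 log2 and Cdk5, a kinase best known from neurons, 6.60 log2 in every bud. Cdk8, the Mediator kinase, had 10.58, 10.65 and 10.58 log2, which is 5.18 log2 over background (adjusted p = 6.59e-07). Another probe set, annotated both to Cdk8 and to the 28S ribosomal RNA gene Rn28s1, had 14.12, 13.69 and 13.80 log2 and was left out because it names 2 genes. Whether ribosomal RNA adds to the Cdk8 signal used here was not tested.

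CDK inhibitors were above background in 4 of 6 genes (66.7%, against 53% of all genes), and in 2 of 6 at the 99th percentile, where 35.3% of all genes were called. Both shares were near those of all genes. Cdkn1b, an inhibitor of the CIP/KIP family that binds CDK2 complexes, had 7.60, 7.78 and 7.86 log2, or 2.33 log2 over background (limma, adjusted p = 1.17e-05). Its 2 probe sets differed in which bud was high: the first gave 7.13, 6.72 and 7.06 log2, with bud 2 the lowest, and the second 8.07, 8.85 and 8.67 log2, with bud 2 the highest. The INK4 inhibitors, which bind CDK4 and CDK6, were split. Cdkn2a had 5.85 log2 in every bud (0.43 log2 over background, adjusted p = 0.000125) and Cdkn2d 6.14, 6.11 and 6.11 log2 (0.70 log2 over background, adjusted p = 4.26e-05). Cdkn2b, at 5.43, 5.40 and 5.40 log2, lay within 0.011 log2 of the background level and was called only at the 90th percentile, and Cdkn2c, at 4.42 log2 in every bud, a mean difference of -1.001 log2. The Cdkn2a locus encodes an INK4 protein and the ARF protein from overlapping exons, and the gene symbol does not separate them. Cdkn3, a phosphatase that acts on CDKs, had 6.38, 6.38 and 6.13 log2 (0.88 log2 over background, adjusted p = 0.000288). Of these 6 genes, only Cdkn1b was called in every setting. Cdkn1c, an inhibitor counted with the partner genes below, was called in every setting too. It was at 7.93 log2 in every bud, 2.51 log2 over background (limma, adjusted p = 1.13e-06).

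The enzymes that set the inhibitory phosphate on CDKs were above background in 5 of 5 genes, against 53% of all genes. CDC25 phosphatases remove that phosphate, and the kinases WEE1 and PKMYT1 add it. Cdc25a had 7.74, 7.89 and 8.25 log2 (limma, adjusted p = 7.01e-05) and Cdc25c 8.28, 8.28 and 8.26 log2 (adjusted p = 8.99e-07). Cdc25b had 5.92, 6.01 and 5.92 log2, 0.53 log2 over background (adjusted p = 5.77e-05), and lost its call at the 99th percentile. Wee1 had 8.45, 8.45 and 8.67 log2, or 3.10 log2 over background (adjusted p = 6.78e-06), and Pkmyt1 6.93, 7.01 and 6.82 log2 (adjusted p = 1.26e-05). Cdc25a and Wee1, with opposite effects on CDKs, were both the highest in bud 3, by 0.51 and 0.22 log2 over the lowest bud.

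The retinoblastoma family, which holds E2F factors inactive, was above background in 3 of 3 genes, against 53% of all genes. Each of the 3 was identical on all 3 arrays. Rb1 was at 7.35 log2, which is 1.93 over background (limma, adjusted p = 1.92e-06), and Rbl1 at 6.99 log2 (adjusted p = 3.06e-06). Rbl2, which in resting cells is the main partner of E2F4, was at 5.49 log2, only 0.07 log2 over background (adjusted p = 0.0444). Its call was lost in 6 of 10 alternatives, among them quantile normalization, an SD floor for identical values and the fits without bud 1 or without bud 3, and 52 other probe sets held exactly its value. Since the Rbl2 value is the same in every bud, the losses without a bud rest on the background levels and error models of those fits.

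E2F factors, their DP partners and Foxm1 were above background in 10 of 11 genes, against 53% of all genes. Of the activator E2Fs, E2f1 was at 5.44 log2 in every bud, 0.02 log2 over background, and did not pass (limma, adjusted p = 0.345), though it did without bud 2 and at the 90th percentile. Its height without bud 2 was 0.04 log2. Since the E2f1 value is the same in every bud, that pass rests on the background levels and error model of that fit. E2f2 was at 5.70 log2 in every bud (0.28 log2 over background, adjusted p = 0.000493), and lost its call at the 99th percentile. E2f3 had 6.77, 7.34 and 7.34 log2 (1.73 log2 over background, adjusted p = 0.00038). Its 2 probe sets disagreed: 1 was at 6.11 log2 in every bud and the other at 7.43, 8.56 and 8.56 log2, so that the difference of bud 1 rests on the second.

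Among the repressor E2Fs, E2f4 was at 6.20 log2 in every bud (limma, adjusted p = 1.98e-05). E2f5 had 6.55, 7.11 and 6.88 log2 (adjusted p = 0.000391), and E2f6, which acts without retinoblastoma proteins, 6.98, 7.45 and 7.30 log2 (adjusted p = 0.000102). E2f7 and E2f8 are atypical E2Fs that bind DNA without a DP partner and repress E2F targets. E2f7 had 7.04 log2 in every bud to within 0.0023 log2 (adjusted p = 2.85e-06). E2f8 had 7.85, 7.10 and 7.10 log2 (adjusted p = 0.000941), with bud 1 above the other buds. Tfdp1, the main DP partner, had 9.22, 9.42 and 9.63 log2, or 4.01 log2 over background (adjusted p = 8.68e-06), and Tfdp2 8.12, 8.21 and 8.12 log2 (adjusted p = 8.69e-07). Foxm1, which switches on mitotic genes, had 7.34, 6.88 and 6.88 log2 (adjusted p = 0.000361), again with bud 1 the highest. Among the E2F factors, their DP partners and Foxm1, those called in every setting were E2f6, E2f7, Tfdp1 and Tfdp2.

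**Figure D2:**
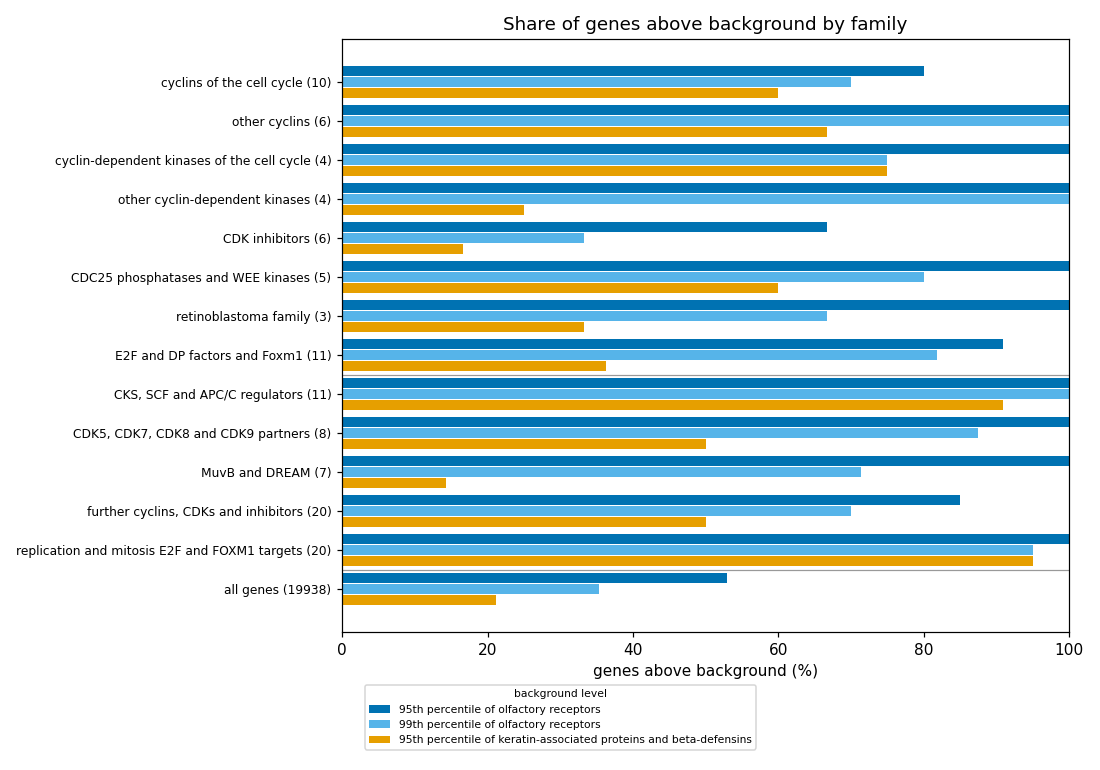
Share of genes above background (percent, horizontal axis) for each family and each group of partner genes, with the number of measured genes in brackets and all genes at the bottom. The 3 bars of a group stand for 3 background levels. The CDK inhibitors have 4, 2 and 1 of 6 genes above the 3 levels, while replication and mitosis genes have 20, 19 and 19 of 20. The shares of all genes are 53%, 35.3% and 21.1%.

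Genes that work with these proteins were above background in 63 of 66 measured genes (95.5%), against 53% of all genes. Regulators of cyclin and inhibitor stability were above it in 11 of 11. Cks1b and Cks2, small subunits bound to CDKs, had 12.12, 11.64 and 11.87 and 10.15, 10.15 and 10.06 log2. Skp1, a core subunit of the SCF ubiquitin ligase, had 11.07, 11.30 and 11.22 log2, and Skp2, its part that recognises the Cdkn1b protein, 7.59, 7.09 and 7.83 log2. Partners of CDK5, CDK7, CDK8 and CDK9 were above background in 8 of 8. Against the Krtap and Defb level, where 21.1% of all genes were called, 4 of these 8 were. The CDK5 activators Cdk5r1 and Cdk5r2 were at 5.85 and 6.38 log2 in every bud, Mnat1, the assembly factor of the CDK7 complex, at 9.38, 9.27 and 9.27 and the Mediator gene Med12 at 7.19, 7.19 and 7.10 log2.

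The MuvB core and its partners repress cell cycle genes with E2F4 and activate them with FOXM1. They were above background in 7 of 7 genes, against 53% of all genes. At the 99th percentile 5 of 7 were called, against 35.3% of all genes. With the Krtap and Defb level 1 of 7 was called, against 21.1% of all genes. Lin9 had 6.80, 7.06 and 7.15 log2, Lin37 had 6.65, 6.48 and 6.88, Lin52 had 6.17, 6.32 and 6.42, and Lin54 had 6.38, 6.38 and 6.20 log2. Further cyclins, CDKs and inhibitors gave 17 of 20, without Ccno (5.40 log2), Cdkl1 (4.04) and Cdkl2 (5.06), each identical on all 3 arrays. Against the Krtap and Defb level they gave 10 of 20, where 21.1% of all genes were called. Ccng1 was at 8.90 log2 in every bud, Ccni at 9.63, 9.66 and 9.72, Ccnj at 7.02, 7.02 and 7.05, and Ccnl1 at 8.69, 8.72 and 8.68. Replication and mitosis genes known as targets of E2F or FOXM1 gave 20 of 20, with Mcm2 at 7.91, 7.75 and 7.82, Mcm3 at 8.21, 7.74 and 8.12, Mcm4 at 8.68 in every bud and Mcm5 at 8.43, 8.25 and 8.25 log2.

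The 3 buds differed by less than 0.5 log2 in 41 of 49 genes. The exceptions were Cdk7, Ccnt1, Ccnd1, E2f8, E2f3, E2f5, Ccnd2 and Cdc25a, which make 8 of 49 (16.3%), against 8.38% of all genes and 11.7% of all genes above background. Only Cdk7 exceeded 1 log2 (1 of 49, or 2.04%, against 2.37% of all genes). With the brightest probe set per gene, only E2f3 did, at 1.13 log2, and Cdkn1b ranged over 0.78 log2. Among the 36 genes not identical on all arrays, the median range was 0.25 log2, against 0.18 log2 over the 9627 such genes of the array and 0.21 log2 over those of them above background. Each bud is 1 array, so no difference between buds can be tested, and in such bulk samples fewer cells of a type and less RNA per cell cannot be told apart.

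**Figure D3:**
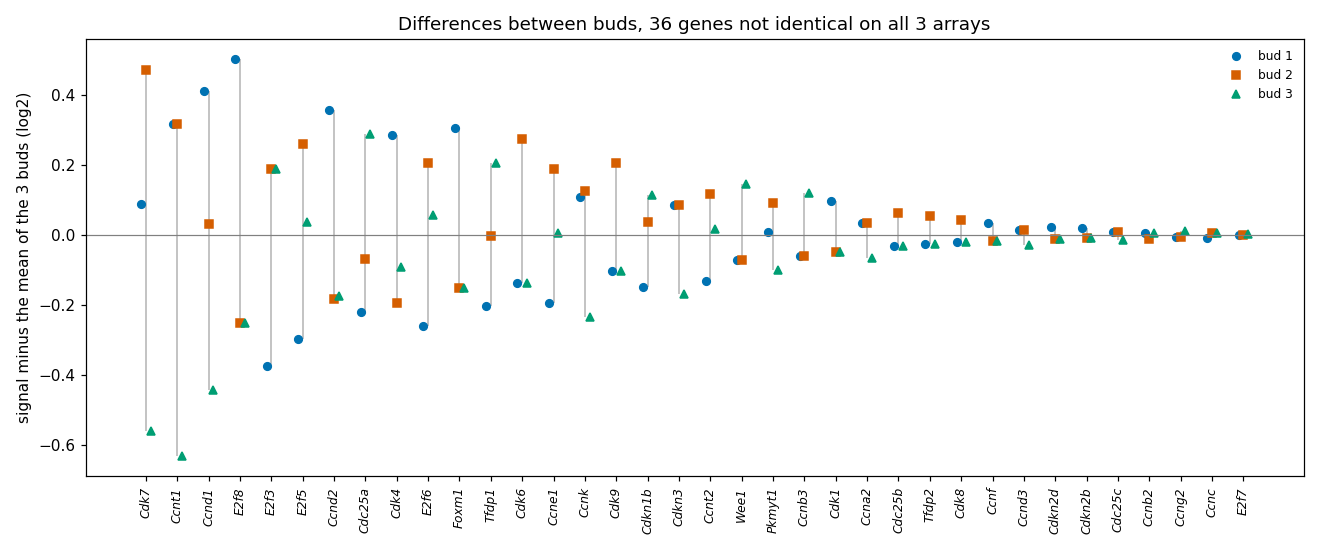
Signal minus the mean of the 3 buds (log2, vertical axis) for the 36 genes not identical on all arrays, in order of their range, with 1 point per bud and a grey line from the lowest to the highest. Ccnd1, Ccnd2, Cdk4, E2f8 and Foxm1 are highest in bud 1, and E2f3, E2f5, E2f6 and Tfdp1 lowest in it.

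Bud 1 alone was the highest in 9 of the 36 genes (25%), against 25.4% of all such genes and 34.2% of those above background. It was alone the lowest in 9 (25%), against 22.5% and 18.1%. Bud 2 alone was the highest in 12 of 36 (33.3%), against 26.5% of all such genes and 20.2% of those above background. It was the lowest in 3 (8.33%), namely Ccnb2, Ccnd2 and Cdk4, against 21.9% and 26.9%. Bud 3 alone was the highest in 7 (19.4%), against 23.9% and 22.8%, and the lowest in 9 (25%), against 20.5% and 25.3%. These shares were not tested. Within the group of E2F factors, DP partners and Foxm1, the buds ran in opposite ways for different genes. Of the E2F genes themselves, only E2f8 was the highest in bud 1. E2f8 and Foxm1 exceeded the mean of the other buds by 0.76 and 0.46 log2 in bud 1, while the differences of E2f3, E2f5, E2f6 and Tfdp1 in bud 1 were -0.56, -0.45, -0.39 and -0.30 log2.

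Markers of the bud and of other cells also varied. All 14 ureteric bud markers were above background, against 53% of all genes. Of the 14, 2 were identical on all arrays and 11 were alone the highest in bud 1. Bud 1 was alone the highest in 34.2% of all genes above background that were not identical on all arrays. The sums of the linear signals of the 14 markers (2 to the power of the log2 value) were 9145 in bud 1, 7444 in bud 2 and 7090 in bud 3. Of the 36 cell cycle genes not identical on all arrays, 9 (25%) were alone the highest in bud 1, Ccnd1, Ccnd2 and Cdk4 among them. That share was 34.2% of all such genes above background. Another 9 of the 36 were alone the lowest in bud 1, E2f3, E2f5, E2f6 and Tfdp1 among them. Endothelial markers were above background in 9 of 12 genes, against 53% of all genes. They were called in 3 at the 99th percentile (35.3% of all genes) and in 0 against the Krtap and Defb level (21.1% of all genes). Each call tests the mean of the 3 buds, so a gene high in only some buds can fail it. Of the 12, 11 were the lowest in bud 2, with sums of 1388, 746 and 1994. Bud 2 was alone the lowest in 21.9% of all genes not identical on all arrays and in 26.9% of those above background. Emcn, an endothelial sialomucin, had 8.37, 6.73 and 9.55 log2, and Cdh5, the vascular cadherin, 8.22, 5.89 and 8.07 log2. Erythroid markers were above background in 4 of 8 genes, near the 53% of all genes, and in 0 at both higher levels, with sums of 1041, 369 and 819.6. The embryonic globin gene Hba-x was called, at 7.98, 5.87 and 7.39 log2, while Hbb-y, at 8.86, 5.48 and 8.52 log2, did not pass (limma, adjusted p = 0.053). The Krtap and Defb level was 6.82, 6.91 and 6.87 log2 on buds 1, 2 and 3. Emcn, Cdh5, Hba-x and Hbb-y, the markers with the largest range, lay above that level in buds 1 and 3 and under it in bud 2. Leukocyte, metanephric mesenchyme and stroma markers were each above background in 3 of 10 genes, below the 53% of all genes. Their sums were 386, 371 and 378 for leukocytes, 482, 484 and 463 for mesenchyme and 370.4 in every bud for stroma. Values were identical on all 3 arrays for 6 of 10 leukocyte, 7 of 10 mesenchyme and 10 of 10 stroma genes. Such values carry no measured spread, so the equal stroma sums do not measure an equal content of stroma. The mesenchyme genes above background were Cited1, Wt1 and Sall1, and the others, Six2 and Gdnf among them, were not. The part of other cells or of bud cell yield in the differences of the cell cycle genes between buds was not tested.

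Of the 49 genes, 4 were measured by 2 probe sets, and their average hides disagreements. The sets of Tfdp1 had means of 10.18 and 8.67 log2, those of E2f3 of 6.11 and 8.18, those of Cdkn1b of 6.97 and 8.53 and those of Cdk7 of 5.89 and 7.57 log2. Each of the 8 probe sets had a mean above the background level, and only the first set of Cdk7 fell under it in a bud, at 4.81 log2 in bud 3.

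**Figure D4:**
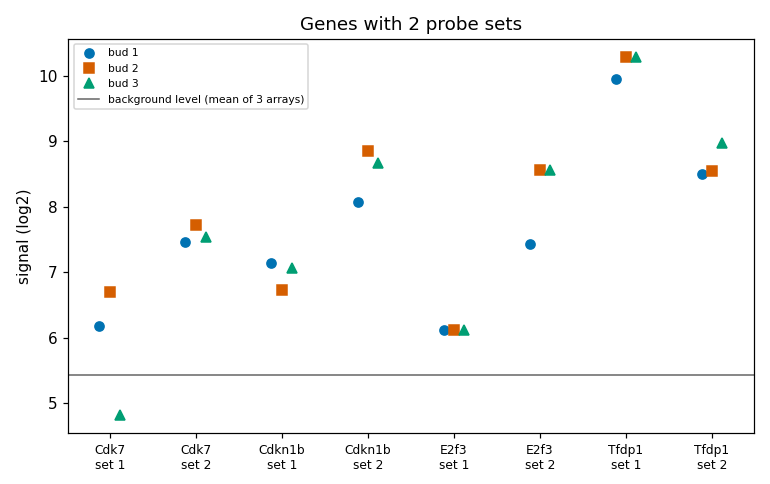
Signal (log2, vertical axis) of the 2 probe sets of Cdk7, Cdkn1b, E2f3 and Tfdp1 in each bud, with the background level averaged over the 3 arrays as a line. The first set of E2f3 holds 1 value in all buds while the second is lower in bud 1, and the first set of Cdk7 is under the line in bud 3.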

How the data were processed

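Sorted ureteric tip cells of 3 single buds, 1 group, were measured on 1 array each, and per the labels the RNA was amplified in 1 round. The submitters' processing notes name Affymetrix Expression Console, from which the authors deposited 1 log2 value per probe set and array. It ran with version, background, normalization and summary steps not given in the sources used here, and base 2 was inferred from the values. Column medians were 5.47, 5.50 and 5.48 log2, and the columns were used as deposited. Identical means within 1e-06 log2. Of 35557 probe sets, 21789 had 1 gene symbol, 1621 several and 12147 none listed, and only those with 1 were used. RefSeq (GRCm38.p6) gave gene IDs for 21698 of them.

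limma 3.58.1 (R 4.3.3) fitted, per gene, the mean of value minus background level, after a run on simulated data. The simulated data held no identical values, and genes meant to stay uncalled, other than olfactory receptors, were set under the background level. That run therefore does not show how the calls behave for identical values or for genes close to the level. Where values are identical, the limma test takes its spread from the differing background levels and a prior of 1.71 degrees of freedom, so its p measures no difference between buds. Nothing says that the buds came from separate embryos or litters, so the spread may in part be technical. Precision is limited by the number of arrays. The members, lists, tests and alternatives were chosen with earlier results of these data known. All measured members are named, with the first 4 genes of each partner group, uncalled partner genes where 5 or fewer, and 4 markers with the largest range. Cdkn1c, Cited1, Wt1, Sall1, Six2 and Gdnf were named after their values were seen. Promoters came from RefSeq; the protein comparison planned was not made, since protein sequences were not used here.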

Additional observations from a re-analysis of the deposited data

How the results depend on the processing

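The background level moved the results most. The median height over background, 1.62 log2, was 2.00 at the 90th percentile of olfactory receptors, 0.98 at the 99th, 0.17 against the Krtap and Defb level, 1.74 with the brightest probe set per gene and 1.74 with the lowest 25% of genes left out. Against the Krtap and Defb level, 23 genes were called in place of 44, and 21.1% of all genes were called. Among the 23 were 1 of 4 other CDKs, 1 of 6 inhibitors, 3 of 5 CDC25 and WEE genes, 1 of 3 retinoblastoma genes and 4 of 11 E2F, DP and Foxm1 genes. The shares of other CDKs and inhibitors were near that of all genes. At the 99th percentile 2 of 6 inhibitors were called, against 35.3% of all genes. Without 1 bud, 43 to 45 genes were called, under error models that differed with the bud left out. Height over background turned negative against the Krtap and Defb level for Ccnd3 (-0.18), Ccnf (-0.72), Ccnh (-0.076), Cdk6 (-0.63), Cdk5 (-0.26), Cdk7 (-0.13), Cdk9 (-0.020), Cdkn2a (-1.02), Cdkn2d (-0.74), Cdkn3 (-0.57), Cdc25b (-0.92), Rbl2 (-1.38), E2f1 (-1.42), E2f2 (-1.17), E2f4 (-0.67) and E2f5 (-0.017), and at the 99th percentile for Cdkn2a (-0.22), Cdc25b (-0.11), Rbl2 (-0.58), E2f1 (-0.62) and E2f2 (-0.36). A higher level lowers every height by construction. Cdkn2b turned positive at the 90th percentile (0.37) and without bud 2 (0.011, range -0.031 to 0.011 without 1 bud). Over the 36 genes not identical as deposited, the median range between buds of 0.25 log2 was 0.28 log2 after quantile normalization, which gave all 49 genes unequal values. With the lowest 25% left out, Ccna1, Ccnb3 and Cdkn2c were not tested. No paired analysis was possible because there is 1 group.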

Other observations

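Of the 14 probe sets of these genes that held 1 identical value on all 3 arrays, 8 shared that exact value with other probe sets of the array. Cdkn2c, at 4.42 log2, shared it with 126 others, Rbl2 with 52, Cdkn2a with 37, Ccna1 with 28, 1 of the E2f3 probe sets with 13, Cdk5 with 7, and E2f2 and E2f4 with 3 each. Over the whole array, 12199 of 14486 identical probe sets shared their value. None of the other probe sets of these genes, which differed between arrays, did. Cdkn2a and the CDK5 activator Cdk5r1 shared 5.85 log2, so that these unrelated genes cannot be told apart by signal.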
